A study of Mus musculus with 2 samples.

Results

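Heat shock proteins and chaperonins of the cytosol, with their J-domain partners, BAG exchange factors and heat shock transcription factors, were followed in C2C12 myotubes given exosomes. The members were the genes whose array name begins with Hspa, Hspb, Hspd, Hspe, Hsp90a, Dnaja, Dnajb, Dnajc or Cct, together with Hsph1, Stip1, Tcp1, Cryab, the BAG genes and the heat shock factor genes, leaving out 5 chaperones of the endoplasmic reticulum (Hspa5, Hspa13, Dnajb9, Dnajb11 and Dnajc3). The rule reads names and no measured value. This gave 90 genes with 186 probes, of 37325 gene names with 56605 distinct probes on the array. Not every one of them is cytosolic: Hspa9, Hspd1 and Hspe1 are chaperones of the mitochondrial matrix, Dnajc10 acts in the endoplasmic reticulum, and Hspb11 belongs to the transport machinery of cilia.

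C2C12 myoblasts, from a mouse muscle line, were brought to fuse by low serum before use. In the KPC-exo group they received 4 µg of exosomes for 24 h from a pancreatic cancer line raised from tumour tissue of mice with the alleles KrasLSL-G12D/+, Trp53LSL-R172H/+ and Pdx1-Cre. In the MPDC-exo group they received exosomes of MPDC, a murine pancreatic ductal epithelial line, at a dose that the labels do not state. The question is how cancer cell exosomes change muscle cell expression relative to epithelial exosomes, so both groups carried exosomes and no culture without them was analysed here. Total RNA of each group was hybridised to 1 array, so every difference lies between 2 arrays, has no replicate check and was not tested.

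Heat shock proteins bind unfolded or partly folded proteins and hold, refold or pass them on for degradation. Hsp70 works in an ATP cycle in which a J-domain protein delivers the client and a BAG protein releases the nucleotide, Hsp90 completes the folding of signalling proteins, and the CCT chaperonin folds actin and tubulin inside its ring. Small heat shock proteins hold clients without ATP, and striated muscle holds a set of them on the contractile apparatus. Under proteotoxic stress HSF1, the main heat shock transcription factor, binds repeats of the letters GAA, in alternating orientation, in the promoters of the inducible members.

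The letters bound by heat shock factors are shown first, because most inducible members hold them. A few promoters are printed, each as the 250 bases before the transcription start in RefSeq's GRCm38.p6, read 5′ to 3′ on the gene's own strand, with matches to the search letters in capitals. Hspe1 encodes the co-chaperonin of the mitochondrial matrix, Hspb1 the small heat shock protein made in most tissues, and Hspa1a an inducible cytosolic Hsp70.
Hspe1 (chr1:55087898-55088147, plus strand): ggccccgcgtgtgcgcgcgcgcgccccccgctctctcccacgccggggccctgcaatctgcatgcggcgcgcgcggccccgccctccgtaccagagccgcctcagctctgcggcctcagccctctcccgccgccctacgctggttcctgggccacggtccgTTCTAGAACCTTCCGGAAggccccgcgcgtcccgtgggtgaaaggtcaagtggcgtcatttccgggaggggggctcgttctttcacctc
Hspb1 (chr5:135887669-135887918, plus strand): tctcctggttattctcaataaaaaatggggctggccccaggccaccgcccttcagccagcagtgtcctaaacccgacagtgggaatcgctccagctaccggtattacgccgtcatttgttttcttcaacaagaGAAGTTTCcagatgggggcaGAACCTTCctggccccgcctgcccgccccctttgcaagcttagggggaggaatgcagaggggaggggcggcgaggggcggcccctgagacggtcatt
Hspa1a (chr17:34972157-34972406, minus strand): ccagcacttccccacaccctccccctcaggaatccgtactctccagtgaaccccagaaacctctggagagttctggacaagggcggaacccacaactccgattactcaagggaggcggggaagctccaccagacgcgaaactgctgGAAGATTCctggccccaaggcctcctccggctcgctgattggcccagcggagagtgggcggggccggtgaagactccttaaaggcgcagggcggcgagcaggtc

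A two-unit match was GAANNTTC or TTCNNGAA, and a three-unit match was GAANNTTCNNGAA or TTCNNGAANNTTC. The two-unit pair covers both strands, because each of its forms is its own reverse complement, and the forms of the three-unit match are each other's reverse complement. A three-unit match holds a pair of overlapping two-unit matches. In windows that run from 250 bases before to 50 bases after the start, 72 of the 90 members had a promoter in the table, and 21 of them (29.2%) held the two-unit letters, against 17.0% of 27025 genes with a promoter. Counted over promoters rather than genes, 15.1% of all 32851 windows held them. The three-unit letters stood in the promoters of Hspd1, Hspe1, Hsph1 and Dnajb6, which is 5.56% of the members, against 0.662% of all genes and 0.603% of all windows. Of the stress-inducible HSF1 targets, a list of 13 members taken from textbook knowledge, 10 had a promoter in the table, 8 of these held the two-unit letters and 3 the three-unit letters. The members with and without these letters had like differences between the arrays. The log2 difference, KPC-exo minus MPDC-exo, had a median of 0.03 over the 20 measured members with the two-unit letters, 11 of them positive, and of 0.03 over the 43 measured members without them, 23 of them positive. A match is a description of letters and no evidence of binding.

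Of the 90 members, 79 were measured, which means that on each array the gene's brightest probe stood well above background. The other 11 were Dnajb3, Dnajb7, Dnajb8, Dnajb13, Dnajc5b, Dnajc6, Dnajc22, Hspa1l, Hsf3, Cct6b and Cct8l1. Of these, Dnajc22 and Hspa1l stood well above background only on KPC-exo, with bounds of at least 1.04-fold and at least 1.11-fold higher there. A log2 level is the log2 processed signal minus the array's 75th percentile. Signal also depends on the probe, so its rank over genes describes probes and not mRNA amount. The 75th percentile was 639 intensity units on the KPC-exo array and 380 units on the MPDC-exo array, and 47.6% and 45.9% of probes were well above background. Both arrays lay on 1 slide. Over all 16989 measured genes the log2 levels of the arrays correlated across genes at r = 0.99, where genes are not independent replicates.

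The chaperone mRNAs lay close together on both arrays. No measured member was at least 1.5-fold higher in KPC-exo and none was at least 1.5-fold lower, while 3.73% and 3.70% of all measured genes were (7.43% in either direction). By at least 0.32 on the log2 scale 12 members were higher (15.2%) and 6 were lower (7.59%), near the 15.5% and 10.1% of all measured genes. The remaining 61 members lay within that range. None was 2-fold apart, a distance that 0.730% of all measured genes reached upward and 1.19% downward. With the arrays centred on 7 spike-in probes instead, 75 of 79 members and 93.4% of all measured genes were at least 1.5-fold higher, so the directions below are relative to the other genes of the array. The log2 difference of the members ran from -0.54 to 0.52, with a median of 0.03 and an SD across members of 0.24, against a median of 0.06 and an SD across genes of 0.35 for all measured genes. Against that median of 0.06, 37 members lay above and 42 below. The members were mostly bright: 68 of 79 reached the 40th percentile of signal over measured genes, and among all genes that bright 0.981% were at least 1.5-fold higher and 1.58% at least 1.5-fold lower. The only error in the files is technical, in which repeated spots of a probe had a median log2 SD of 0.03 within either array and the probes of a gene had a pooled SD of 0.36 in their log2 difference (0.30 for the 42 members with several measured probes).

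**Figure D1:**
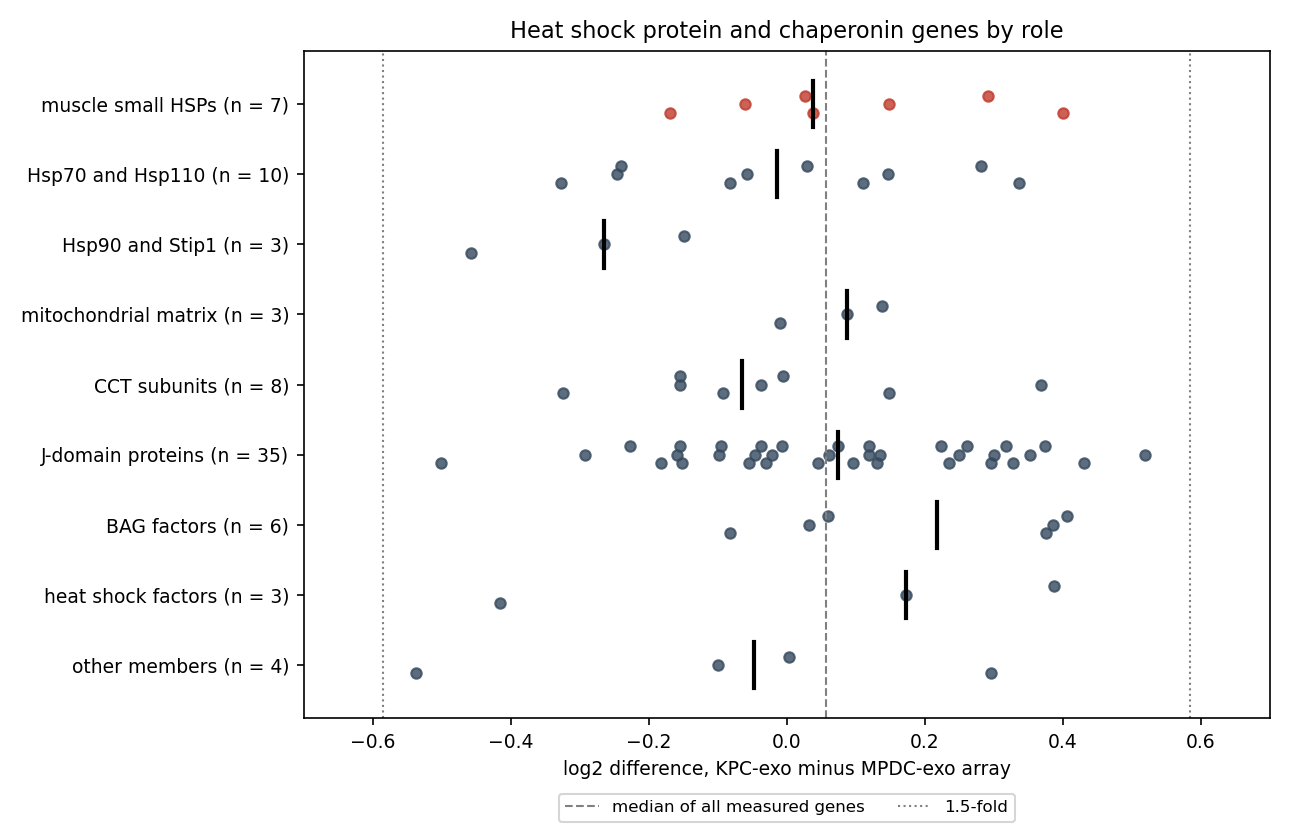
Each point is the log2 difference, KPC-exo minus MPDC-exo, of 1 measured member, in rows by role, with a black bar at the median of each row. All 79 points lie inside the dotted lines at 1.5-fold, and the dashed line is the median of all measured genes at 0.06.

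The small heat shock proteins of muscle were all measured, 7 of 7, and none stood 1.5-fold apart, against 7.43% of all measured genes. Their median log2 difference was 0.04, against 0.03 for the other 72 members, which puts the medians 0.0066 apart. This small gap depended on the processing, at 0.090 with quantile normalization and -0.0060 with the mean over a gene's probes. Against all measured genes, 3 of the 7 lay above the median and 4 below. Hspb3 and Hspb2, which form a complex with each other in muscle cells, had the highest differences. Hspb3 had log2 levels of -0.27 in KPC-exo and -0.67 in MPDC-exo, a difference of 0.40. Hspb2 had log2 levels of 5.19 in KPC-exo and 4.90 in MPDC-exo, a difference of 0.29. Both were thus higher on the KPC-exo array by about the spread between probes of a gene, and each rested on 1 probe.

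Cryab, which encodes alpha-B-crystallin, a holdase at the sarcomere's Z-disc, had the lowest difference of the small heat shock proteins, with log2 levels of 6.47 in KPC-exo and 6.64 in MPDC-exo (difference -0.17). It lay at percentile 95.8 of signal, and the median over the brightest 5% of all genes was -0.10. The Cryab gene is a neighbour of Hspb2, which lay on the other side of 0. The single Cryab probe, shown because its gene is the most studied of the muscle set, lies on chr9:50564566-50564625 of mm9, on the plus strand.
Cryab probe: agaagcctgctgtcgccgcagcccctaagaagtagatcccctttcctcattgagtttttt
The other small heat shock proteins differed little. Hspb1 had log2 levels of 7.38 in KPC-exo and 7.35 in MPDC-exo (difference 0.03). Hspb8, which works with Bag3 in the selective autophagy of damaged muscle proteins, had 3.47 in KPC-exo and 3.43 in MPDC-exo (difference 0.04). Hspb7, a partner of filamin C in striated muscle, had 1.96 in KPC-exo and 2.02 in MPDC-exo (difference -0.06), and its other probe gave -0.15. Hspb6, a small heat shock protein of smooth and striated muscle, had 2.95 in KPC-exo and 2.80 in MPDC-exo (difference 0.15). A dimmer Hspb6 probe, upstream in the transcript, gave a log2 difference of -0.32, so the sign of this gene depends on the probe. That probe is shown because it turns the sign, and it lies on chr7:31339385-31339528 of mm9, across a splice junction on the plus strand.
Hspb6 upstream probe: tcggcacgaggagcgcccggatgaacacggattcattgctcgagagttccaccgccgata

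**Figure D2:**
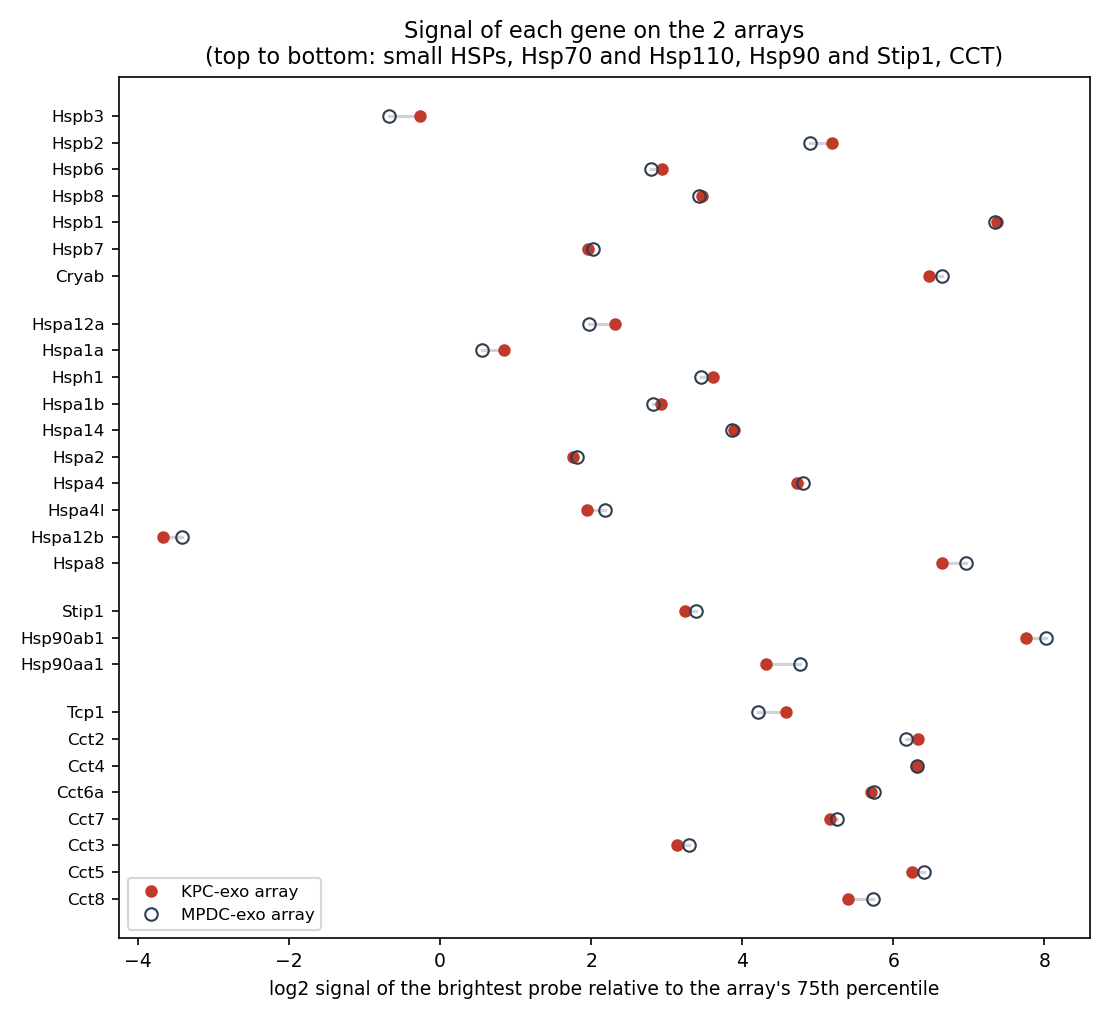
Log2 signal of the brightest probe, relative to the array's 75th percentile, on the KPC-exo array (filled) and the MPDC-exo array (open), for the small heat shock proteins, Hsp70 and Hsp110, Hsp90 with Stip1, and CCT genes, with a line joining the values of a gene. The points nearly coincide for Hspb1 and Hspb8, and among the genes drawn they stand farthest apart for Hsp90aa1 (-0.46) and Hspb3 (0.40).

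Hsp90 and its adaptor were lower on the KPC-exo array in all 3 members, with a median log2 difference of -0.27. Hsp90aa1, the inducible cytosolic Hsp90, had log2 levels of 4.31 in KPC-exo and 4.77 in MPDC-exo (difference -0.46), and its other measured probe gave -0.19. These probes start at bases 791 and 557 of the transcript, and a probe farther downstream was not measured. Over the array, the first measured probe of a transcript was at least 1.5-fold lower more often than the last, as described below. For probes under 500 bases apart, as in Hsp90aa1, these shares were close, at 1.52% and 1.33% of transcripts outside the members. In Hsp90aa1 the downstream probe had the lower difference. The part of probe position in the Hsp90aa1 values was not tested. Hsp90ab1, the constitutive form, had 7.75 in KPC-exo and 8.02 in MPDC-exo (difference -0.27). Stip1, which links Hsp70 to Hsp90, had 3.24 in KPC-exo and 3.39 in MPDC-exo (difference -0.15), while a dimmer Stip1 probe gave 0.73. None of these genes reached 1.5-fold in its brightest probe. The brightest genes had lower differences than the rest: the 5% with the highest signal, Hsp90ab1 and Hspa8 among them, had a median log2 difference of -0.10, and the 7 members there had -0.15. The part of this shift in the Hsp90ab1, Hspa8 and Cryab values was not tested. Both Hsp90aa1 probes are shown because they give the lower value of the pair and its spread. They lie on the minus strand of chromosome 12 of mm9, at chr12:111933318-111933377 (-0.19) and chr12:111932511-111932796 (-0.46).
Hsp90aa1 upstream probe: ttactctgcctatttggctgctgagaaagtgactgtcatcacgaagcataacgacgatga
Hsp90aa1 downstream probe: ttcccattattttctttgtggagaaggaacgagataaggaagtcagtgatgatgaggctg

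The Hsp70 and Hsp110 genes were split about 0, with a median log2 difference of -0.01 over the 10 measured of 11. Hspa8, the constitutive cytosolic Hsp70, was lowest, with log2 levels of 6.64 in KPC-exo and 6.97 in MPDC-exo (difference -0.33). The inducible pair Hspa1a and Hspa1b lay on the other side: Hspa1a had 0.84 in KPC-exo and 0.56 in MPDC-exo (difference 0.28), and Hspa1b had 2.93 in KPC-exo and 2.82 in MPDC-exo (difference 0.11). These genes are near-identical copies, so the split of signal between their probes is uncertain. Hspa12a and Hspa12b, distant relatives of Hsp70, had differences of 0.34 and -0.25, and Hspa12b was the dimmest measured member, at percentile 0.182 of signal. Hsph1 and Hspa4, which are Hsp110 proteins that release nucleotide from Hsp70, had 0.15 and -0.08, and their relative Hspa4l had -0.24. The other measured probes gave 0.22 for Hsph1, -0.003 and 0.63 for Hspa4, and -0.10, 0.10 and 0.83 for Hspa4l. With the mean over probes Hspa4 had 0.18 and Hspa4l 0.15, so the signs of both depend on the probe. Hspa14, a ribosome-bound Hsp70, had 0.03, and Hspa2, best known from the testis, had -0.06.

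The 4 measured probes of Hspa8 all gave a negative difference, of unequal size. Along the transcript they start at bases 405, 950, 1219 and 1812, with log2 differences of -0.89, -0.47, -0.31 and -0.33. Thus the probe nearest the 5′ end was past 1.5-fold lower and the brightest probe, nearest the 3′ end, was not. They lie on the plus strand of mm9 at chr9:40610620-40610679, chr9:40611362-40611421, chr9:40611841-40611900 and, across a splice junction, chr9:40612755-40613050, and are shown because the size of the Hspa8 difference turns on which is read.
Hspa8 at base 405: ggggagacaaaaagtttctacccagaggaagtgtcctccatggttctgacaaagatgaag
Hspa8 at base 950: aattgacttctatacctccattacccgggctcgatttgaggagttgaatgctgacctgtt
Hspa8 at base 1219: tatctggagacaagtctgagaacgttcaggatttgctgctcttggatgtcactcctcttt
Hspa8 at base 1812: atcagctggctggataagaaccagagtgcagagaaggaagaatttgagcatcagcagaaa

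The mitochondrial chaperones had differences near 0 in their brightest probes. Hspa9, the matrix Hsp70, had a log2 difference of 0.14, Hspd1, the matrix chaperonin, 0.09, and Hspe1, its lid, -0.01. Each also had a measured probe of the opposite sign, at -0.30 for Hspa9, -0.07 for Hspd1 and 0.25 for Hspe1. The CCT subunits, 8 measured of 9, had a median log2 difference of -0.07, and 2 of the 8 were positive. Tcp1, the alpha subunit, was highest, with log2 levels of 4.58 in KPC-exo and 4.21 in MPDC-exo (difference 0.37), although its other measured probe gave -0.05. Cct8, the theta subunit, was lowest, with 5.40 in KPC-exo and 5.73 in MPDC-exo (difference -0.32), although its other measured probes gave -0.12 and -0.05. Cct2 had 0.15, Cct4 -0.01, Cct6a -0.04, Cct7 -0.09, Cct3 -0.15 and Cct5 -0.15. Dimmer probes gave the opposite sign for Cct6a (0.28), Cct5 (0.11) and Cct4 (0.18). The subunits assemble into 1 ring complex, and their differences spanned both signs.

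J-domain proteins made up the most numerous group, with 35 of 42 measured and a median log2 difference of 0.07. None of them was 1.5-fold apart, against 7.43% of all measured genes. The 24 measured Dnajc genes had a median of 0.13, the 4 Dnaja genes -0.03 and the 7 measured Dnajb genes -0.03. Highest were Dnajc5g, a relative of the cysteine string protein, at 0.52, Dnajc16 at 0.43, Dnajc24, which takes part in diphthamide synthesis, at 0.37, and Dnajc27 at 0.35. Lowest were Dnajb14, an Hsp70 partner anchored in the endoplasmic reticulum membrane, at -0.50, Dnajc2, a ribosome-bound partner of Hspa14, at -0.29, Dnajc7, a TPR protein that binds Hsp70 and Hsp90, at -0.23, and Dnajc10, a disulphide reductase of the endoplasmic reticulum, at -0.18. Dnajb14 had log2 levels of 0.87 in KPC-exo and 1.37 in MPDC-exo, and its other probe gave -0.26. The other measured probe of Dnajc7 gave the opposite sign, at 0.17. Those of Dnajc16 and Dnajc24 gave 0.04 and 0.29, and those of Dnajc10 gave -0.87 and 0.0007. Dnajc5g, Dnajc27 and Dnajc2 each rested on 1 measured probe. Dnajc5g was dim, at percentile 12.2 of signal, where differences are wide: 18.2% of the dimmest 20% of genes were at least 1.5-fold apart in either direction, against 0.706% of the brightest 5%.

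**Figure D3:**
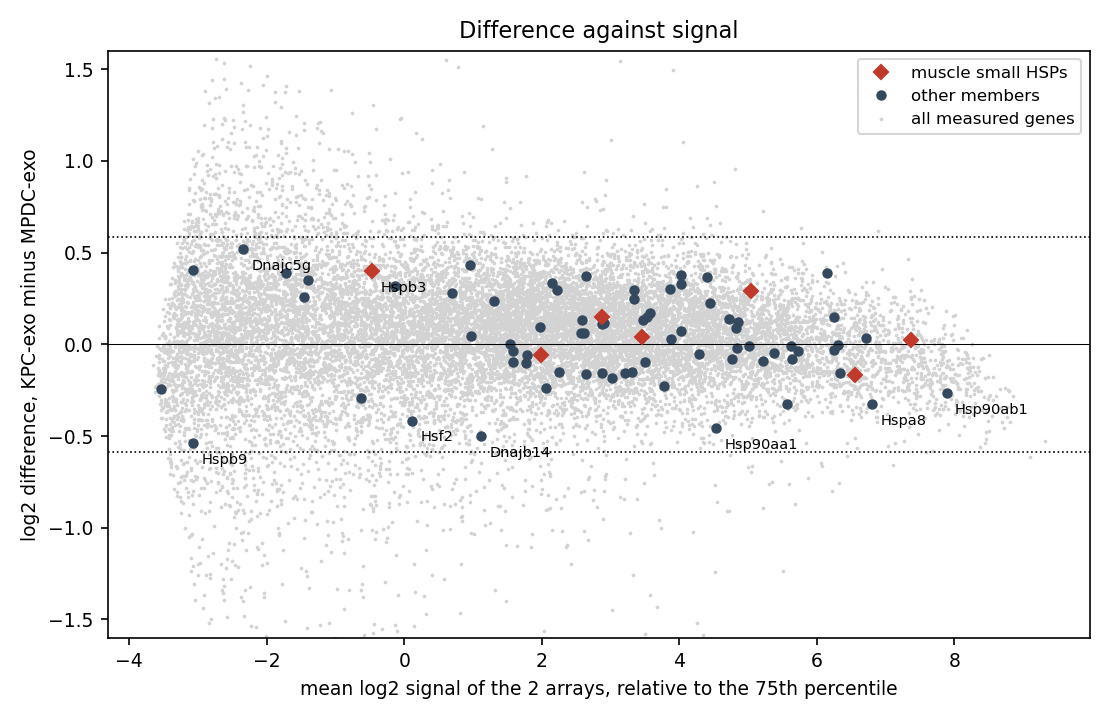
The log2 difference, KPC-exo minus MPDC-exo, of each measured gene (vertical) against its mean log2 level over both arrays (horizontal), with the muscle small heat shock proteins and the other members over all genes in grey. The grey cloud widens at low signal, the members stay within it, and 76 genes beyond 1.6 on the log2 scale are not drawn.

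The BAG factors had a median log2 difference of 0.22 over 6 genes, with 5 positive. None was 1.5-fold apart, against 7.43% of all measured genes. Bag6, a quality control factor for membrane proteins, had log2 levels of 6.34 in KPC-exo and 5.96 in MPDC-exo (difference 0.39). Bag5 had 0.38 and Bag4, a dim gene at percentile 3.86 of signal, 0.41. Bag2, Bag1 and Bag3, the partner of Hspb8, had 0.06, 0.03 and -0.08. The value of Bag6 rests on its 3′ probe, since its other measured probes gave the opposite sign: they start at bases 1419 and 1806 of the transcripts and gave -0.56 and -0.89, against 0.39 at base 3732. The 3 probes are shown because they disagree in sign. They lie on the plus strand of mm9 at chr17:35278544-35278809, chr17:35279929-35280310 and chr17:35284142-35284201, the upstream pair across splice junctions.
Bag6 at base 1419: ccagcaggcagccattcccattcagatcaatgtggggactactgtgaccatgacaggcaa
Bag6 at base 1806: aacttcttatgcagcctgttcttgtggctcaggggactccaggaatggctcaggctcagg
Bag6 at base 3732: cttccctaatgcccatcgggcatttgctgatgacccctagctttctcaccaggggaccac

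The heat shock factors pointed both ways. Hsf1 had log2 levels of 3.66 in KPC-exo and 3.49 in MPDC-exo (difference 0.17). Hsf2, a factor best known from development, had -0.10 in KPC-exo and 0.32 in MPDC-exo (difference -0.42). Hsf4, known from the lens, had -1.52 in KPC-exo and -1.91 in MPDC-exo (difference 0.39), while its other probe gave -0.28. The stress-inducible HSF1 targets, 13 of 13 measured, had a median log2 difference of -0.03, with 5 positive and 8 negative, and 4 of them exceeded the all-gene median while 9 did not. Among the remaining members, Hspb11 had 0.30, Hspbap1 0.00, Hspbp1, a nucleotide exchange factor of Hsp70, -0.10, and Hspb9, a small heat shock protein of the testis that was dim here, -0.54.

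Co-chaperones outside the name rule lay within 1.5-fold as well. All 33 of a textbook list were measured, none was at least 1.5-fold apart and the median log2 difference was 0.04. Ppp5c, a phosphatase that binds Hsp90, was highest at 0.34, followed by Chordc1, an Hsp90 partner, and Txndc9, a CCT cofactor, both at 0.22. Among the lowest were Ahsa1, the activator of the Hsp90 ATPase, at -0.25 and Grpel2, a mitochondrial exchange factor, at -0.22. The endoplasmic reticulum chaperones that the rule leaves out were read together with Hsp90b1 and Hyou1, whose names it does not match. Over these 7 genes the median log2 difference was -0.07, with Hyou1 lowest at -0.52.

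The cell type markers bear on the myotubes themselves. All 12 myotube markers were measured, with a summed level, relative to the array's 75th percentile on a linear scale, of 387 in KPC-exo and 382 in MPDC-exo and a median log2 difference of 0.02. Mb, myoglobin, was the 1 myotube marker past 1.5-fold, at 0.60, while Ckm at -0.43 and Des at -0.41 were lowest, and 6 of the 12 were positive and 6 negative. Fibroblast markers, 5 of 7 measured, summed to 211 in KPC-exo and 216 in MPDC-exo, with a median log2 difference of -0.20 and with bright Dcn at 0.37 and Mfap5 at -0.27. Macrophage and leukocyte markers, 5 of 6, summed to 11.2 in KPC-exo and 10.2 in MPDC-exo, with a median of 0.22, Cd68 at 0.63 and Csf1r at -0.87. Epithelial markers, 2 of 7, summed to 0.306 in KPC-exo and 0.288 in MPDC-exo, and Epcam, Cdh1, Krt8 and Krt18 were among the 5 that did not pass background on either array. Of 4 endothelial markers 1 was measured, Kdr at -0.07. The cultures were of a muscle cell line, so signal of the other lists does not by itself show other cell types. The part of the markers in the chaperone values was not tested. In bulk RNA, fewer fused cells and less RNA per cell cannot be told apart.

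Probes of 1 gene often disagreed, and the pattern below was looked at after the values were seen. Of the 42 members with at least 2 measured probes, 27 had probes of both signs (64.3%), against 53.8% of 5736 genes. Of the 143 measured member probes, 4 were at least 1.5-fold higher and 6 at least 1.5-fold lower, against 4.65% and 5.41% of 24962 measured probes. All 10 lay upstream of their gene's brightest probe. How often other measured probes lie upstream of theirs was not counted, so this describes the 10 probes only. Lower values in upstream probes were seen over the array as well, but not at short distances. Where a transcript had several measured probes, the first was at least 1.5-fold lower in 12.9% of 31 member transcripts and in 11.4% of 3929 others. The last was so in 0 and in 1.43%. In the 1051 others with probes under 500 bases apart, the first was so in 1.52% and the last in 1.33%. Such a share was not counted for probes at least 1.5-fold higher. The 6 lower ones belonged to Hspa8 (-0.89), Bag6 (-0.89), Dnajc10 (-0.87), Dnajb2 (-0.79), Dnajb4 (-0.69) and Dnajc11 (-0.69). The 4 higher ones belonged to Hspa4l (0.83), Stip1 (0.73), Hspa4 (0.63) and Dnajc14 (0.59), and each was designed on a cDNA clone rather than on a RefSeq mRNA. Of the 6 measured member probes on cDNA clones 4 were thus at least 1.5-fold higher. Among all other probes the share was 13.2% of 3402 on cDNA clones or ESTs, against 1.94% of 17753 on RefSeq mRNAs. Among member transcripts whose measured probes lie at least 1500 bases apart, the downstream probe had the higher log2 difference in 6 of 6, with a median step, downstream minus upstream, of 0.52. The same held in 68.4% of 1357 other transcripts, with a median step of 0.24. From 500 to under 1500 bases it was 10 of 16 members against 65.2% of others, and under 500 bases 3 of 9 against 38.9%. Over all distances the downstream probe was higher in 19 of 31 member transcripts (61.3%) and in 59.3% of 3929 others.

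**Figure D4:**
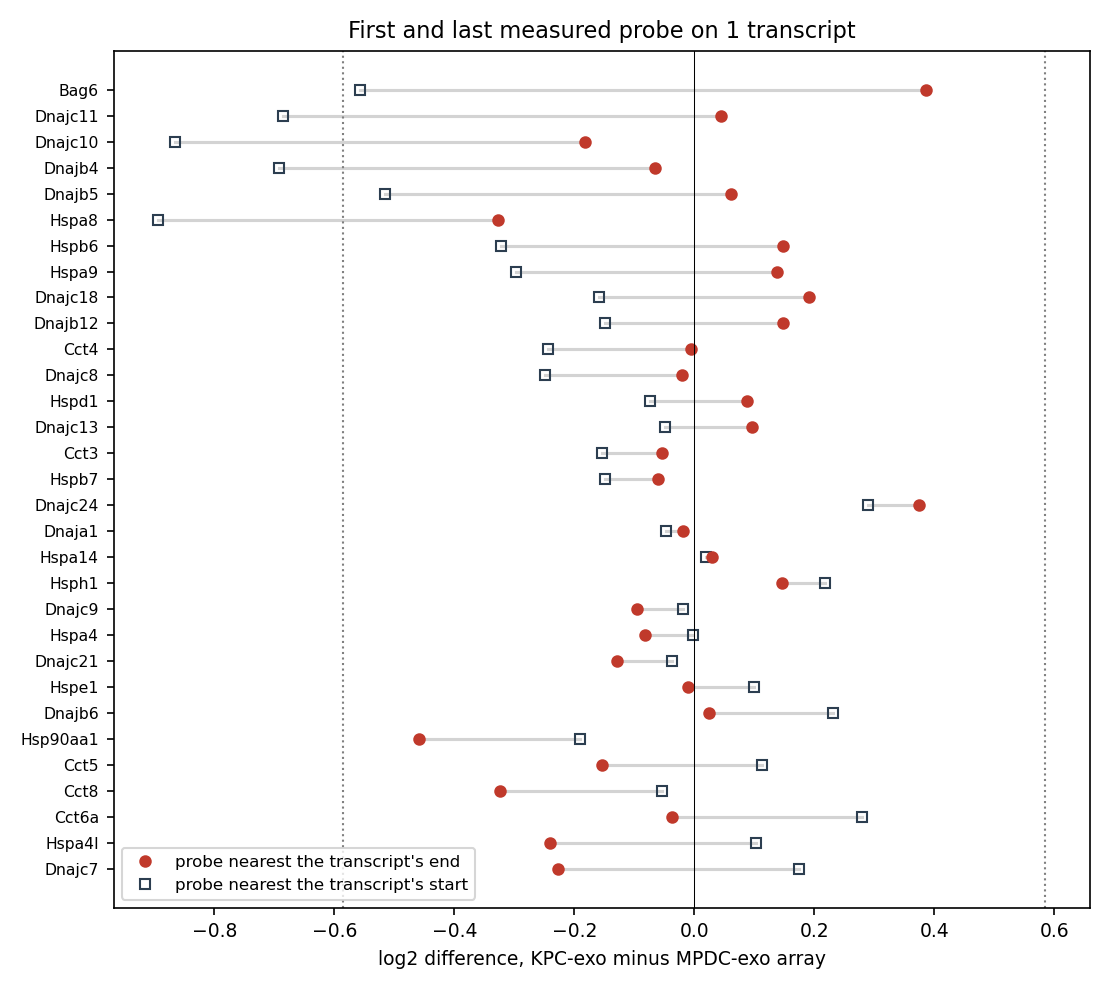
Log2 difference, KPC-exo minus MPDC-exo, of the measured probe nearest the end (filled circle) and nearest the start (open square) of 31 member transcripts with at least 2 measured probes, with 1.5-fold at the dotted lines. The value nearest the end is the higher one in 19 of 31, and none of the filled circles lies past 1.5-fold.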

How the data were processed

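Total RNA of C2C12 myotubes was measured on 2 arrays, 1 per group, grouped by the treatment in the labels. Per the labels, it was amplified to Cy3-labelled cRNA, and per the submitters' processing notes the scans went through Agilent Feature Extraction 10.7.1.1. The deposited scanner files hold background-subtracted spot intensity in linear units, with no scaling across the pair of arrays. The deposited series table holds log2 values with no stated method, and it served only as an alternative. Its KPC-exo and MPDC-exo columns each follow that array's own log2 signal (r = 1.00 across 56578 probes) and have the same median, 4.88, so they run in the same direction and are not centred per gene. The arrays share 1 slide and 1 scan. The number of arrays limits the precision.

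The processed signal was put on the log2 scale. Spots with a non-uniformity or population outlier flag were dropped (166 on the KPC-exo array and 102 on the MPDC-exo array, none of them a member's), spots of a probe were averaged and the array's 75th percentile was subtracted. No member spot was saturated. Each gene was read from its brightest probe, which had to stand well above background on each array. Single arrays allow no test, so genes at least 1.5-fold apart were counted. Accessions of 149 of the 186 member probes matched RefSeq names, and members kept their array names by design. Positions of probes use mm9 (per the file headers), and promoters are RefSeq's for GRCm38.p6.

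The members and lists were chosen with earlier results of these data known. Named are all members of the small heat shock protein, Hsp90, Hsp70, mitochondrial, CCT, BAG and heat shock factor lists, the 4 highest and 4 lowest J-domain genes, and the 3 highest and 3 lowest co-chaperones; other named genes were chosen after their values were seen. One gene that the rule selects is not reported here. Alternatives tried were normexp (offset 50), other centrings, quantile and cyclic loess normalization, other filters on dim and flagged spots, the mean over probes, the series table and other folds. The scripts were tested on simulated data. Software was limma 3.58.1 in R 4.3.3, and pandas 2.3.3, numpy 2.4.6 and matplotlib 3.10.9 in Python 3.11.15.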

Additional observations from a re-analysis of the deposited data

How the results depend on the processing

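With 1 array per group, no alternative gives a replicate error, and cultures, exosome preparations and arrays cannot be told apart from the treatment. Centring on 7 spike-in probes moved the median log2 difference of all genes to 1.06 and that of the members to 1.03, with 75 members at least 1.5-fold higher. The medians were then 1.04 for the muscle small heat shock proteins, 0.935 for CCT, 0.97 for the stress-inducible targets and 1.07 for the J-domain proteins. The median of the members was 0.087 with normexp, -0.02 with median centring (-0.0204), -0.0228 with the percentile over detected probes and -0.0080 with cyclic loess, where the median of all genes was 0.05, 0.00, 0.00 and 0.00. Members at least 1.5-fold lower numbered 1 with median centring and 1 with the detected-probe percentile (Hspb9 in both), 2 with cyclic loess (Hspb9 and Dnajb14) and 1 with no filter on dim probes (Dnajc6), where 4.37%, 4.39%, 4.54% and 7.13% of all genes were. Members at least 1.5-fold higher numbered 3 with no filter (Cct6b, Dnajc22 and Hspa1l), against 8.22% of all genes. Where spots with a background flag were left out they numbered 1, Stip1 at 0.73, against 3.80%. That value was read from the dimmer Stip1 probe in place of the brightest (-0.15), and the Hsf4 value for this setting, given below, likewise came from its dimmer probe. With the threshold lowered to 0.32 on the log2 scale the members numbered 12 higher and 6 lower. The median of the small heat shock proteins minus that of the other members ranged from -0.0060 with the mean over probes to 0.090 with quantile normalization. Of 933 single-gene values under the alternatives, 845 stayed within 0.36 of the main one, 79 moved by more with spike-in centring and 9 with others, among them Bag6 (-0.35) and Stip1 (0.29) with the mean over probes, Hsf4 (-0.28) without background-flagged spots and Bag4 (-0.08) with normexp. Apart from spike-in centring, 49 of 79 members kept 1 sign. No paired analysis was possible because each group has 1 array. The dimmest measured members were Hspa12b, Bag4, Hspb9, Dnajc5g and Hsf4.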
